A study of Mus musculus with 6 samples.

Results

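Fibroblasts and endothelial cells of pressure-overloaded mouse hearts were compared to find which cell type carried each injury gene. The 3 arrays of interest, out of 6 in the series, hold traced fibroblasts, untraced fibroblasts and endothelial cells isolated 1 week after transverse aortic constriction (TAC), an operation that narrows the aorta and overloads the left ventricle. They were chosen by their labels, and each fibroblast array was set against the endothelial array of the same surgery. The other 3 arrays hold the same populations after a sham operation and served as the background.

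The mice were black swiss males, 8 to 10 weeks old, with 3 per surgery, and the cells were sorted from their left ventricles. Traced fibroblasts descend from cells in which Tie2-Cre was active, and untraced fibroblasts do not. Tie2-Cre is a recombinase driven by the promoter of Tek, an endothelial receptor gene that blood cells can also use, so tracing reports past or present Tek promoter activity and not a cell type. The endothelial samples carry no lineage label, and how the cells were told apart in the sort is not given in the sources used here. Each of the 6 groups has 1 array from 200 ng of total RNA. The labels do not say whether the arrays of a surgery share hearts or whether RNA was pooled.

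Pressure overload makes the heart muscle grow and its interstitium scar. Fibroblasts are the main source of collagen and other matrix in the heart, and in injury some take on the contractile features of myofibroblasts. Endothelial cells line the capillaries that feed the muscle; under stress they can divide, sprout, and display adhesion molecules and chemokines that draw leukocytes.

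Values are log2 probe set intensities, or differences between them, unless given as a fold or a percent. A difference of 1 is 2-fold, and a gene is called raised when it lay at least 2-fold above its own sham array. With 1 array per group no difference has an error of its own and none was tested. A gene was called higher in fibroblasts when both fibroblast TAC arrays lay at least 2-fold above the endothelial TAC array, higher in endothelial cells when both lay at least 2-fold below it, shared when both lay within 2-fold, and undecided otherwise. The difference between the traced and untraced TAC arrays served as a yardstick in place of replicate error. Its SD over the 11793 detected genes was 0.277, against 1.31 for the mean fibroblast minus endothelial difference, and 57 genes (0.483%) differed at least 2-fold between the fibroblast arrays. Arrays of fibroblasts also share what sets that cell type's preparation apart, which this yardstick does not contain.

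The 6 arrays were alike in their medians, from 106.6 to 115.2 intensity units, and unlike in their controls. Spike-in controls here are bacterial and phage hybridisation controls. They averaged 12.76 on the endothelial TAC array, 11.82 on the traced and 11.57 on the untraced fibroblast TAC array. On the matching sham arrays they averaged 12.88, 12.00 and 11.75. The gap was uneven among these controls: bioB alone averaged 11.07, 9.03 and 8.67 on the TAC arrays in that order. Whether the controls track the amount of RNA in the cells was not tested. The untraced fibroblast TAC array also stood apart at the 18S ribosomal RNA control, with 11.30 against 14.16 to 14.76 on the others. Its 3' minus 5' difference between Gapdh control probe sets was 2.10, against 1.12 to 1.36 on the others. The same difference for actin, -0.14, lay within the -0.32 to -0.11 of the others. The part of RNA quality in the values of this array, and so in the yardstick, was not tested. Across the gaps in spike-in level the deposited scaling holds the medians equal, and setting the arrays to equal spike-ins instead moved each mean fibroblast minus endothelial difference, and so the median of each gene list, by 1.06. In bulk samples, fewer cells that express a gene and less of its RNA per cell cannot be told apart.

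The labels matched the defining markers. Pdgfra, the platelet-derived growth factor receptor that marks fibroblasts, stood at 12.03 on the traced and 12.15 on the untraced fibroblast TAC array and at 8.72 on the endothelial TAC array, 10.3-fold higher in fibroblasts. Pecam1, an adhesion molecule of endothelial junctions, stood at 6.76, 7.18 and 13.43 in the same order, 87.8-fold higher in endothelial cells. Over the marker lists, 18 of 19 detected fibroblast genes were higher in fibroblasts and 25 of 25 endothelial genes were higher in endothelial cells. The fibroblast marker that was not called was Mgp, an inhibitor of calcification, at 13.92, 13.93 and 13.34.

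In endothelial cells, fibroblast markers were nearer to the fibroblast level after TAC than after the sham operation. Expressed as a percent of the mean fibroblast intensity of the same surgery, the 18 markers called in fibroblasts ran from 5.42% (Scara5, a ferritin receptor) through a median of 12.8% to 42.1% (Dcn, the proteoglycan decorin) after TAC. At sham the same genes ran from 0.365% through 1.84% to 11.6%, and each of the 18 had a higher percent after TAC. Mgp, left out because it was not called, stood at 66.5% after TAC; the call itself keeps the others at or below 50%. With spike-in scaling the median after TAC was 6.08%. Pdgfra moved from 3.28% at sham to 9.70% after TAC, and Mfap5, a microfibril protein, from 0.989% to 31.5%. How much of this is fibroblast RNA carried in the endothelial sample was not tested. The same percent is given below for the matrix genes.

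The genes higher on the endothelial TAC array, and among them those also raised over endothelial sham, are described first.

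After TAC, 1916 of the 11793 detected genes (16.2%) were higher in fibroblasts, 999 (8.47%) were higher in endothelial cells, 8031 (68.1%) were shared and 847 (7.18%) were undecided. The median difference over all detected genes was 0.16. Fibroblast genes made up 65.7% of those called, and 93.5% with spike-in scaling. At sham the same genes split into 2468 higher in fibroblasts (20.9%), 1061 higher in endothelial cells (9.0%) and 7221 shared (61.2%), so fewer genes were called in either direction after TAC. Of the genes called in fibroblasts at sham, 641 were shared after TAC, while 188 of those called in endothelial cells at sham were.

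**Figure D1:**
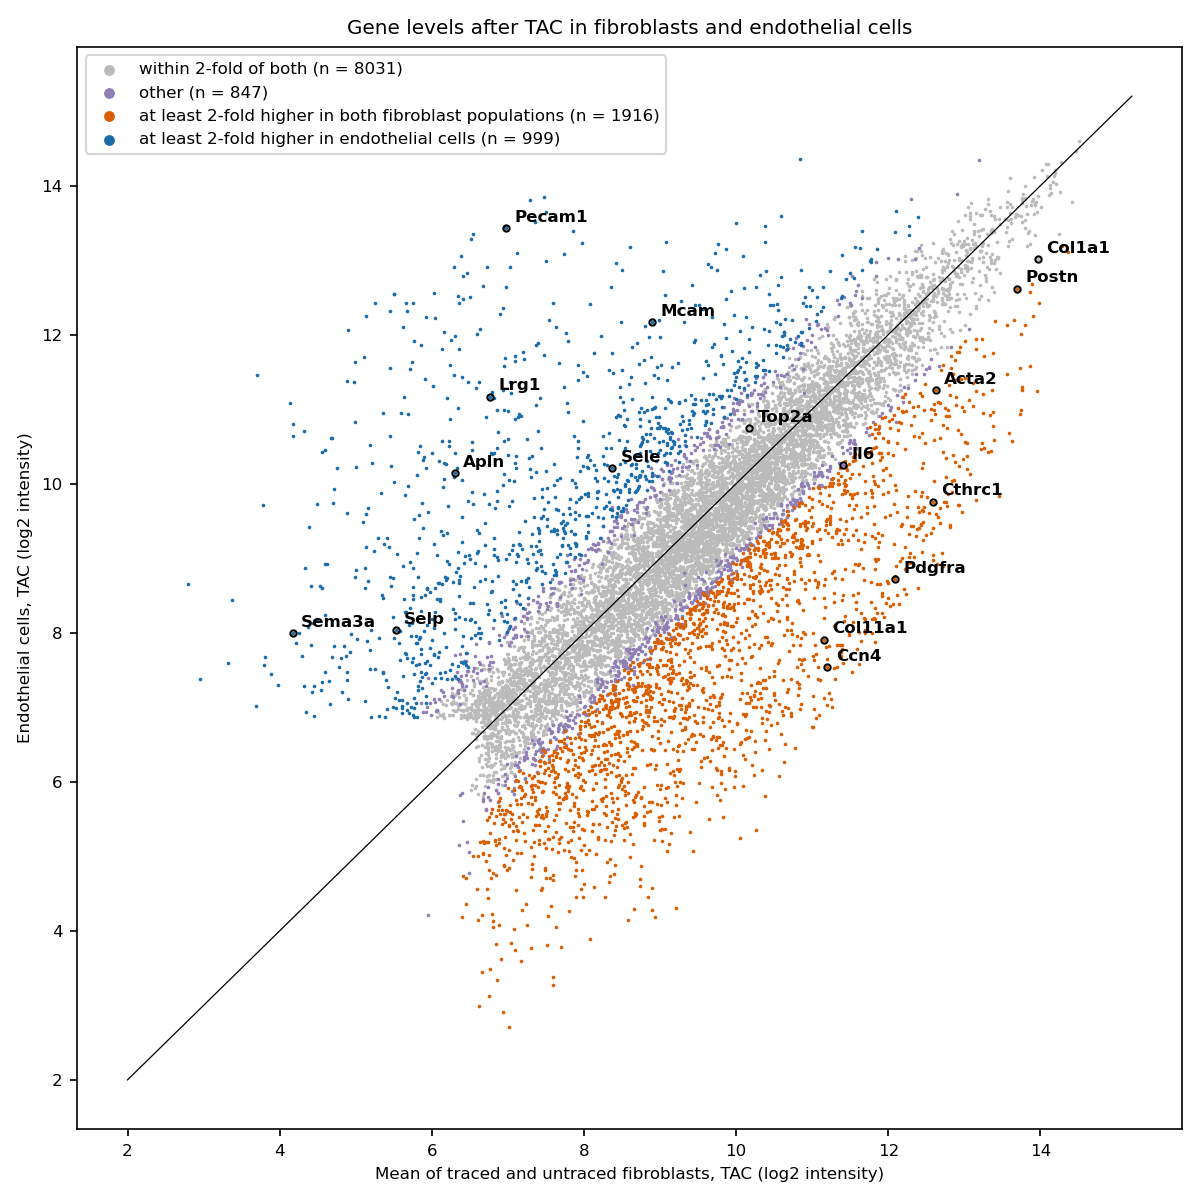
Level of each of the 11793 detected genes after TAC, with the mean of the traced and untraced fibroblast arrays on the x axis and the endothelial array on the y axis (log2 probe set intensity), 1 point per gene, coloured by class; the line marks equal levels. Lrg1, Apln, Sele and Selp lie on the endothelial side of the line at 11.17, 10.14, 10.21 and 8.03 on the y axis, and Ccn4, Col11a1 and Pdgfra on the fibroblast side.

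On the endothelial side the widest gap was that of Aqp7. This gene, a glycerol channel, stood at 3.4 and 4.0 on the traced and untraced fibroblast TAC arrays and at 11.5 on the endothelial TAC array, 216-fold higher. St8sia4, a polysialic acid transferase, followed at 4.77, 5.04 and 12.06, and Tie1, an endothelial receptor kinase, at 5.40, 5.62 and 12.54. In endothelial cells Aqp7 itself was lower after TAC than at sham (12.66). Btnl9, Robo4, Myct1, Emcn, Rasgrp3, Car4 and Gimap8 completed the 10 widest, each at least 95.9-fold higher in endothelial cells. On the fibroblast side the widest gap was that of Unc5c, a netrin receptor, at 9.24, 9.17 and 4.31 (29.8-fold higher), and the others were Efemp1, Kcnt2, F3, Sec16b, Pxylp1, Il33, Ninl, Abi3bp and Dse. F3, tissue factor, which starts blood clotting, stood at 8.75, 9.12 and 4.19. Il33, an alarm cytokine, stood at 10.64, 10.47 and 6.08. The low side of Aqp7, St8sia4, Unc5c, Efemp1 and F3 is dim, so their folds are rough.

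In endothelial cells 120 genes, or 1.02% of those detected, both exceeded the fibroblast TAC arrays and stood at least 2-fold above sham. Of these, 46 stood at least 4-fold above both fibroblast arrays. At sham, 47 of the 120 had already been higher in endothelial cells, 54 were shared, 17 were undecided and 2 were higher in fibroblasts. In both fibroblast populations 39 of the 120 were also at least 2-fold above sham, as were 285 of all 1338 genes raised in endothelial cells (2.42% of the detected genes). Just inside the rule lay Nusap1, with a smallest difference of 1.005, Slc46a3 (1.006) and Rab27a (1.007), and just outside lay 2500002B13Rik (0.9998), Il1b (0.9964) and Pcna (0.9895). With spike-in scaling 51 genes met the rule, 45 of them among the 120, and at 4-fold in place of 2-fold 9 did.

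Lrg1 led these genes. It encodes a secreted leucine-rich glycoprotein known to act on TGF-beta signalling in vessels. It stood at 11.17 on the endothelial TAC array and at 6.89 and 6.64 on the traced and untraced fibroblast TAC arrays, 21.1-fold higher in endothelial cells. At sham the 3 populations lay close together, at 6.85 in endothelial cells, 6.12 in traced and 6.04 in untraced fibroblasts. The endothelial TAC array was thus the only high one of the 6, 19.9-fold above endothelial sham.

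Both inducible selectins, which let leukocytes roll on vessel walls, followed the same order. Sele, E-selectin, stood at 10.21 on the endothelial TAC array and at 8.38 and 8.35 on the traced and untraced fibroblast TAC arrays, against 5.53, 6.04 and 5.80 at sham. All 3 TAC arrays lay above all 3 sham arrays, and the endothelial value was 25.7-fold above its sham. That sham value is dim, so the fold is rough. Selp, P-selectin, stood at 8.03 on the endothelial TAC array, 5.35 on the traced and 5.69 on the untraced fibroblast array, against 5.40, 4.87 and 4.62 at sham. For Selp only the endothelial TAC array was high, and its other probe sets differed in the same direction (-3.21 and -2.89). With spike-in scaling the margin of Sele over the nearer fibroblast array was 0.67, under the 2-fold threshold.

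Apln, the peptide apelin made by sprouting endothelial tip cells, stood at 10.14 on the endothelial TAC array and at 6.25 and 6.35 on the traced and untraced fibroblast TAC arrays. At sham it stood at 7.90, 3.86 and 4.76. The endothelial TAC value was 14.3-fold above the fibroblasts and 4.71-fold above sham, and both fibroblast TAC arrays also lay above their shams. Its receptor gene Aplnr was endothelial as well, at 12.91 against 6.50 and 7.56, but not raised (13.38 at sham). Sema3a, a secreted guidance factor, stood at 8.00 against 4.23 and 4.11, and at 5.37 on the endothelial sham array. Both fibroblast values of Sema3a lie within the range of 27 dim bacterial control probe sets (highest 5.29 to 5.70 on the 6 arrays), so the size of its difference rests on dim values, and Gatm, Lrrn1, Ppbp and Cysltr1 likewise had both fibroblast values in that range.

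The promoters of Lrg1, Apln, Selp and Sele are shown because these genes were high together on the endothelial TAC array. The sequences are the 250 bases before each gene's start in RefSeq (GRCm38.p6), on the gene's strand, from chr17:56121947-56122196 (minus strand) for Lrg1, chrX:48034854-48035103 (minus) for Apln, chr1:164115014-164115263 (plus) for Selp and chr1:164047984-164048233 (plus) for Sele. Capitals mark AGGAAG on either strand, the core that ETS factors such as the endothelial ERG can bind.
Lrg1: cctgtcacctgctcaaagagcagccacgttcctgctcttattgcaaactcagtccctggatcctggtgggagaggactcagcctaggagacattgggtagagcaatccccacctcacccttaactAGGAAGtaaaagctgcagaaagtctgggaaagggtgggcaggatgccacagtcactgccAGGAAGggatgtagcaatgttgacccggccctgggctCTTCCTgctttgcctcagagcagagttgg
Apln: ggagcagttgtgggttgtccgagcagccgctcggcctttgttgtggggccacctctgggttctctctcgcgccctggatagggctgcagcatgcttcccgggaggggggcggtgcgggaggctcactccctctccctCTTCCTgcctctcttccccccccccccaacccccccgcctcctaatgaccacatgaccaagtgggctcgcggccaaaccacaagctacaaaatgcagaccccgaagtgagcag
Selp: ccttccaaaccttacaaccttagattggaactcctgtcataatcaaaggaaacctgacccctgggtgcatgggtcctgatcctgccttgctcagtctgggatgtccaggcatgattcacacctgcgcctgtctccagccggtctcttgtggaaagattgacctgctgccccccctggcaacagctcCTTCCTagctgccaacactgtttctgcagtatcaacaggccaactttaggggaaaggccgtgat
Sele: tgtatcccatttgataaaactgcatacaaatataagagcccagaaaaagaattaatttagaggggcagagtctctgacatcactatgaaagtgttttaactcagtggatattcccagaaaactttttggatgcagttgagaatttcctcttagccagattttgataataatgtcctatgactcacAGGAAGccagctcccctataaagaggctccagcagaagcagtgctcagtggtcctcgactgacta

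AGGAAG occurred 3 times in the Lrg1 window and 1 time in each of the others. Of the 20 leading genes 18 had a promoter in the table, and 9 of the 18 held AGGAAG, against 7 of 16 among the leading fibroblast genes and 29.5% of all 32851 promoters. TGANTCA, the site type of AP-1, was in 5 of 18 (AA467197, Selp, Sele, Ppbp and Upp1) against 0 of 16 and 6.75% of all. TTCNNNGAA, the STAT type, was in 2 of 18 and 2 of 16 against 7.02% of all. Neither an NF-kB type (GGG, 2 free bases and TTTCC, 1.41% of all) nor TTTNGCGC, an E2F type (1.13% of all), matched in a window of either group. Both strands were searched, and matches of different motifs can share bases. Each search used an exact pattern, so sites of these types with other letters were not counted. A match describes letters and not a bound site.

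Among the other leading genes, Slco2a1, the prostaglandin transporter, stood at 9.82 on the endothelial TAC array, 7.51 and 7.39 on the fibroblast TAC arrays and 6.60 on the endothelial sham array. The endothelial TAC array was the only one of the 6 above 7.51, although its other probe sets ranged from -3.28 to -0.39. Bdkrb2, the bradykinin B2 receptor, stood at 8.63 against 5.35 and 5.57, with 6.79 at sham; its 1 other probe set gave a difference of -0.82. Cysltr1, a leukotriene receptor, stood at 7.66 against 4.84 and 4.77. Rgs16, a brake on G protein signalling, stood at 11.65 against 9.89 and 9.32, and all 3 populations lay above their shams (9.01, 7.89 and 7.17). Cd109, a TGF-beta co-receptor, stood at 10.24 against 7.79 and 8.18.

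Several leading genes belong to metabolism. Upp1, uridine phosphorylase, stood at 10.21 against 5.65 and 6.19, and Cda, cytidine deaminase, at 9.44 against 7.78 and 7.24, both enzymes of pyrimidine salvage. Gatm, the first enzyme of creatine synthesis, stood at 7.82 against 4.51 and 5.18. Mall, a membrane raft protein, was 38.1-fold higher in endothelial cells (10.94 against 5.56 and 5.82) and was already so at sham (9.14). Nav2, AA467197, Lrrn1, Fam167b and Ppbp complete the leading genes with Tmem255a, described with the genes that changed sides. The fibroblast minus endothelial difference of Lrrn1 was -5.07 on the probe set used and -0.39 and -0.22 on its others, and that of Nav2 was -3.76, with others from -3.17 to 0.50, so both depend on the probe set.

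**Figure D2:**
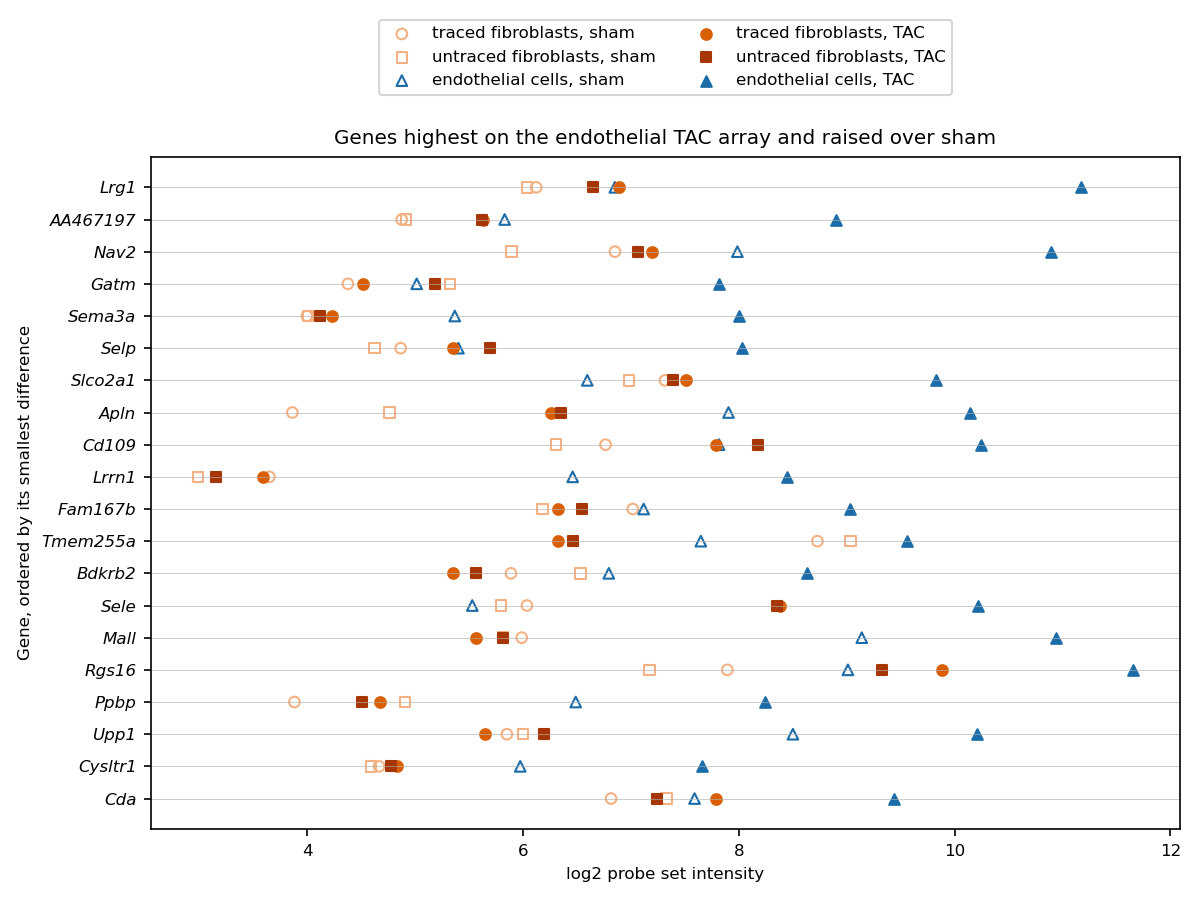
The 20 leading genes of the endothelial rule, ordered by the smaller of their differences from the higher fibroblast TAC array and from endothelial sham, with the log2 intensity of all 6 arrays (filled symbols TAC, open symbols sham). The endothelial TAC array is the rightmost point for each gene, from 7.66 for Cysltr1 to 11.65 for Rgs16.

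Platelet and macrophage transcripts were checked beside these genes, since Ppbp and Selp are also made by platelets and Ccl3, Tyrobp and Ctss by macrophages. Ppbp, a platelet chemokine, stood at 8.24 against 4.67 and 4.51. Of 6 platelet markers, a list chosen after the values were seen, 4 were detected: Itga2b at 8.23 on the endothelial and 8.48 and 8.27 on the fibroblast TAC arrays, Pf4 at 8.61 against 9.33 and 8.86, Gp9 at 7.19 against 6.45 and 6.54, and Gp1bb at 6.80 against 8.82 and 8.75. None of the 4 was higher in endothelial cells by the rule. Of 9 detected macrophage markers 4 were higher on the endothelial TAC array (C1qa, C1qb, Laptm5 and Tyrobp), 2 were shared, 2 undecided and 1, Cx3cr1, was higher in fibroblasts. The summed level of all 12 macrophage markers with a probe set, detected or not, was 11.23 on the endothelial, 10.83 on the traced and 10.32 on the untraced fibroblast TAC array, and 10.51 on the endothelial sham array. Adgre1, the defining F4/80 antigen, stood at 5.35, 5.10 and 4.93, within the range of the dim bacterial controls. Ccl3, a leukocyte-attracting chemokine, stood at 7.41 against 5.92 and 5.83, and Tyrobp, a myeloid signalling adaptor, at 7.38 against 6.31 and 6.22. Ctss, a lysosomal protease named after its values were seen, stood at 7.47 against 5.99 and 5.73. The part of macrophages in Ccl3, Tyrobp and Ctss was not tested.

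The proliferation list was raised in every population. Of its 29 detected genes 28 were at least 2-fold above sham in endothelial cells, beside 11.3% of all genes, and 26 in both fibroblast populations, beside 4.35%. After TAC 7 were higher in endothelial cells, 12 were shared, 10 were undecided and 0 were higher in fibroblasts, with a median difference of -0.81 (-0.28 at sham); spike-in scaling turned this median to 0.25. Each of the 7 endothelial genes also met the endothelial rule, and none of the 7 did with spike-in scaling. The median rise was 3.61 in endothelial cells, 2.60 in traced and 3.29 in untraced fibroblasts.

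Mki67, the Ki-67 antigen of cycling cells, stood at 12.87 on the endothelial TAC array and at 11.56 and 11.74 on the traced and untraced fibroblast TAC arrays, against 8.59, 8.43 and 8.33 at sham. The 3 sham values were close to each other, and all TAC values lay far above them. Kif11, a spindle motor, stood at 10.6 against 8.7 and 9.0, and Mcm2, a subunit of the replicative helicase, at 10.39 against 8.53 and 8.81. Cenpf, a kinetochore protein, stood at 10.58 against 8.96 and 9.12, and Ccna2, cyclin A2, at 11.87 against 10.16 and 10.69. Nusap1 and Mcm3 were the other 2. For Ccna2, Cenpf and Kif11 the other probe sets gave smaller gaps, and the mean over all probe sets did not meet the rule.

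The 10 shared genes with the largest smallest rise in all 3 populations were all of cell division (Ect2, Top2a, Cdk1, Spc25, Cip2a, Prr11, Nuf2, Ccnb2, Anln and Prc1). Top2a, the topoisomerase of chromosome segregation, stood at 9.97 and 10.37 in traced and untraced fibroblasts and 10.74 in endothelial cells, against 6.60, 6.72 and 6.21 at sham. Anln, a cytokinesis scaffold, stood at 9.04, 9.78 and 9.43, against 6.03, 5.84 and 5.23. On the percent scale 27 of the 29 proliferation genes stood above 100%, with a median of 170%, while no detected fibroblast marker stood above 66.5%.

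**Figure D3:**
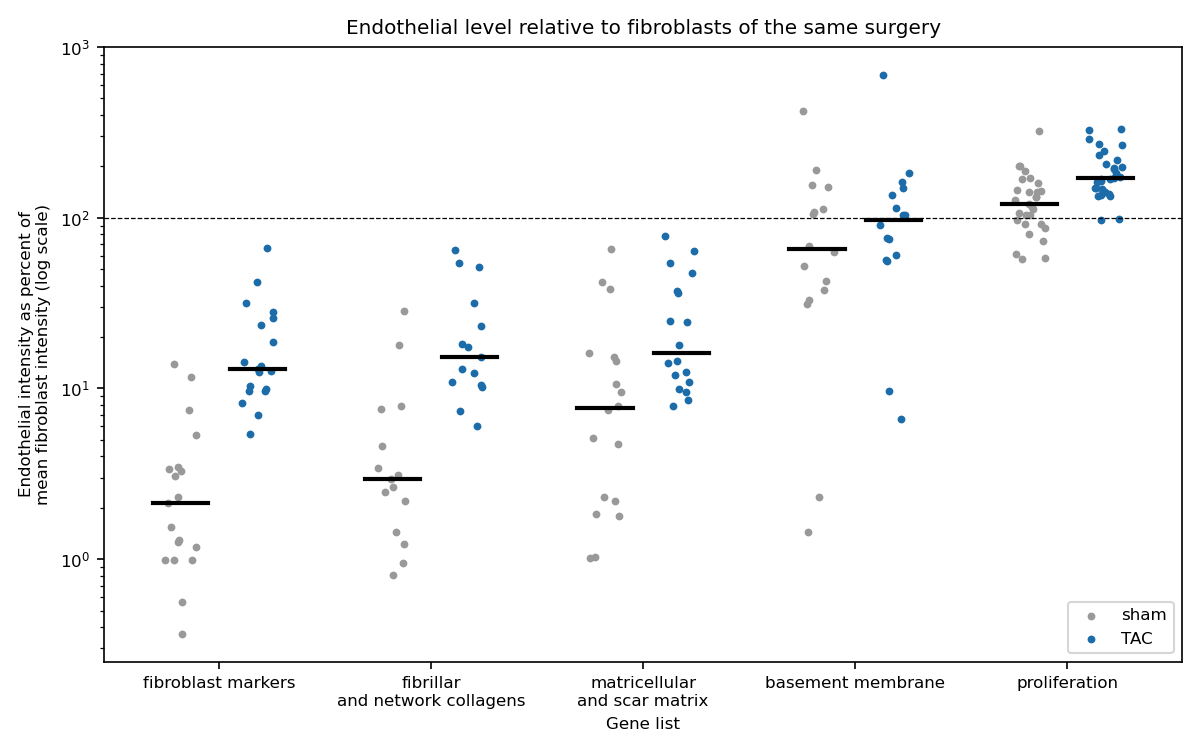
Endothelial intensity as a percent of the mean intensity of both fibroblast arrays of the same surgery (log axis), 1 point per detected gene in 5 lists, grey for sham and blue for TAC, with black bars for medians and a dashed line at equal levels. Fibroblast markers, collagens and matricellular genes lie below the line after TAC, with medians of 13.0%, 15.3% and 16.2%. Basement membrane genes lie on both sides of it, with a median of 97.0%, and proliferation genes mostly above it, with a median of 170%.

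Genes of angiogenesis and tip cells were carried mostly by endothelial cells. Of 25 detected 16 were higher in endothelial cells, 7 were shared, 1 was undecided and 1, Angpt1, was higher in fibroblasts, with a median difference of -2.39 (-2.07 at sham). In endothelial cells 5 of the 25 were raised (Apln, Esm1, Pgf, Mcam and Nid2), beside 11.3% of all genes, and Apln, Esm1 and Mcam met the endothelial rule. Esm1, the tip cell proteoglycan endocan, stood at 8.17 on the endothelial TAC array and at 3.78 and 5.20 on the fibroblast TAC arrays, and at 6.68, 4.75 and 6.67 at sham, where the endothelial and untraced fibroblast values were level. Mcam, an adhesion molecule shared with mural cells, stood at 12.17 against 8.73 and 9.06, with 10.71 at sham, and was also raised in both fibroblast populations.

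The receptors for vascular growth factors stayed endothelial. Kdr, the main VEGF receptor, stood at 13.29 against 5.92 and 7.10 (13.54 at sham), Flt1 at 13.45 against 7.16 and 6.75, and the Notch ligand Dll4 at 10.36 against 5.77 and 6.01. None of these was 2-fold from its sham. Cxcr4, the chemokine receptor of sprouting vessels, was lower than at sham (11.59 against 12.69) while still above the fibroblasts at 8.05 and 7.79. Among growth factor ligands, Angpt1, which steadies vessels through Tek, was higher in fibroblasts at 7.90 and 7.99 against 6.10 in endothelial cells. Vegfa stood at 9.98 and 9.85 in fibroblasts and 8.93 in endothelial cells, undecided because the untraced difference was under 2-fold. Pgf was level, at 9.54 and 9.61 in fibroblasts and 9.54 in endothelial cells.

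In the Notch list 6 of 13 genes were higher in endothelial cells (Notch1, Notch4, Dll1, Dll4, Jag2 and Hey1) and 3 in fibroblasts (Notch2, Hey2 and Heyl), with a median of -0.97 that spike-in scaling turned to 0.09. Notch4 stood at 11.59 in endothelial cells after TAC and 11.48 at sham, while both fibroblast arrays stood higher after TAC (9.50 and 9.75) than at sham (7.27 and 7.50). None of the 13 genes was raised in endothelial cells, beside 11.3% of all detected genes.

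Of 13 detected leukocyte adhesion and activation genes 5 were higher in endothelial cells (Selp, Sele, Icam2, Vwf and Cd200), 6 were shared, 1 was undecided and 1 was higher in fibroblasts, with a median of -0.36 that was -0.68 without probe sets whose suffix marks shared probes and that spike-in scaling turned to 0.70. The fibroblast gene was Vcam1, a ligand for leukocyte integrins, at 11.40 and 11.56 against 9.72. Icam1 was shared at 11.43, 11.52 and 11.75. Plvap, the diaphragm protein of fenestrated and injured vessels, stood at 9.68 in endothelial cells after TAC against 6.12 at sham, and at 10.25 and 10.02 in fibroblasts against 8.85 and 8.91, so this gene was raised in all 3 populations and shared by level.

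Of 14 capillary lipid uptake genes 11 were higher in endothelial cells and 0 in fibroblasts, with a median of -5.01. Against sham 2 of the 14 were raised in endothelial cells and 3 were at least 2-fold lower (Aqp7, Timp4 and Car4), beside 11.3% and 1.44% of all genes, and 3 were lower in both fibroblast populations (Cd36, Aqp7 and Timp4), beside 1.56%. Gpihbp1, which anchors lipoprotein lipase on capillaries, stood at 13.35 against 6.19 and 6.89. Timp4 stood at 10.80 against 4.03 and 4.31 and was lower than at sham on all 3 arrays, where it had been at 12.88, 6.67 and 6.42. In the MHC list 5 of 13 genes were higher in endothelial cells, with a median of -0.92 that spike-in scaling turned to 0.14, and Nlrc5, an activator of MHC class I genes, was lower after TAC (8.62) than at sham (10.79) in endothelial cells. Of 13 interferon genes 8 were shared, 3 were higher in endothelial cells (Rsad2, Oas1a and Oas2), and 1 in fibroblasts (Ifi27l2a). Raised over sham were 2 of the 13 in endothelial cells and 3 in both fibroblast populations (Rsad2, Usp18 and Cxcl10), beside 11.3% and 4.35% of all genes.

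Over all 23 injury lists, 361 of 396 genes were detected. After TAC 114 of the 361 (31.6%) were higher in fibroblasts, 70 (19.4%) in endothelial cells, 147 (40.7%) were shared and 30 (8.31%) were undecided. At sham these counts were 133, 70, 136 and 22. The fibroblast rule, higher in fibroblasts and at least 2-fold above sham in both populations, was met by 37 of the 361, and the endothelial rule by 13. Of all detected genes, 1.73% and 1.02% met these rules.

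**Figure D4:**
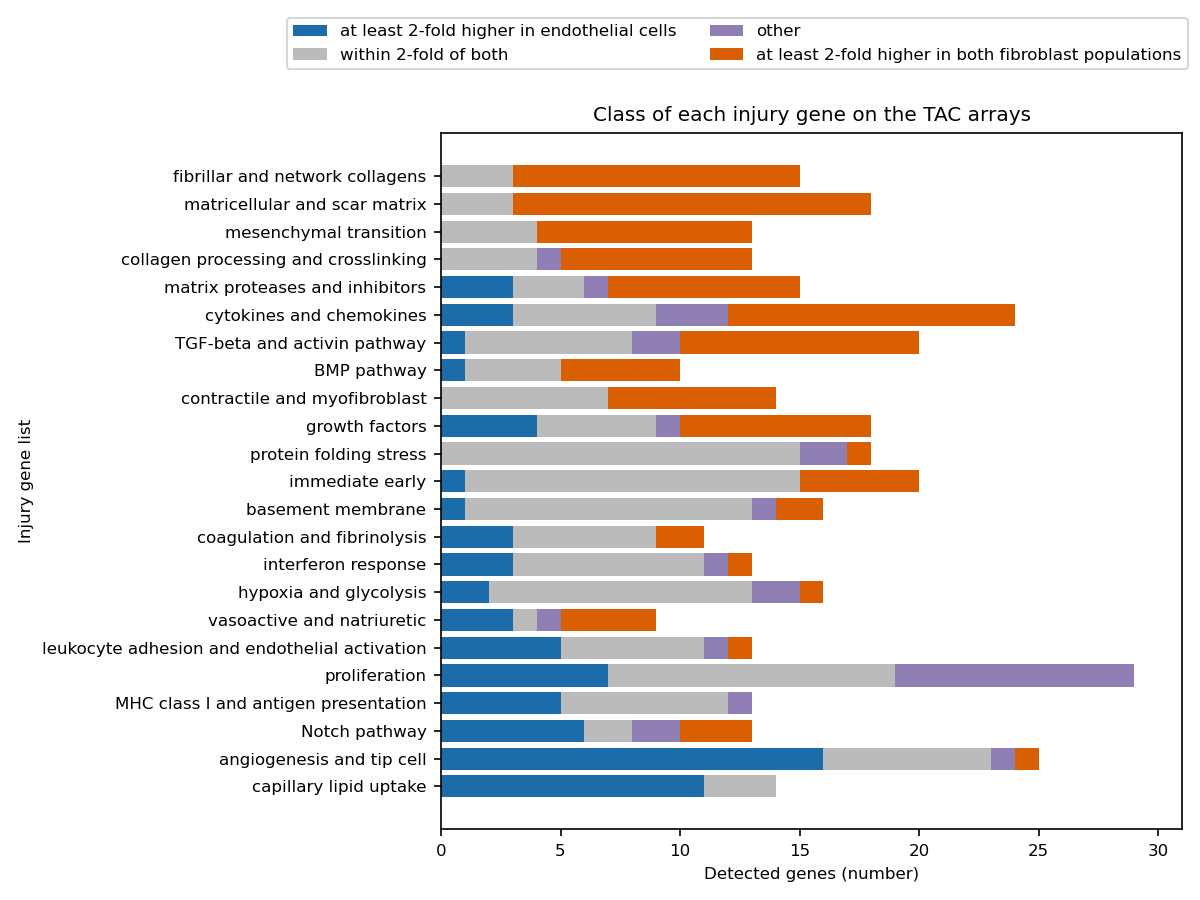
Number of detected genes in each of the 23 injury lists, split by class on the TAC arrays (blue, at least 2-fold higher in endothelial cells; grey, within 2-fold of both; purple, undecided; orange, at least 2-fold higher in both fibroblast populations). The collagen and matricellular lists are mostly orange, with 12 of 15 and 15 of 18 genes, and the basement membrane list mostly grey, with 12 of 16. Angiogenesis and lipid uptake are mostly blue, with 16 of 25 and 11 of 14.

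Over all genes, 204 (1.73%) met the fibroblast rule. At sham 100 of the 204 had been higher in fibroblasts, 88 were shared, 14 were undecided and 2 were higher in endothelial cells; 112 stood at least 4-fold above endothelial cells after TAC, and 78 were also raised on the endothelial array. Just inside the rule lay Crispld1, G530011O06Rik and Prkg2 (smallest differences of 1.002, 1.003 and 1.006), and just outside 0610040B10Rik, Ptprn and Lif (0.9983, 0.9982 and 0.993). Of the genes raised in both fibroblast populations, 513 in all, 39.8% were higher in fibroblasts after TAC and 13.5% in endothelial cells. Of the 1338 raised on the endothelial array, 547 (40.9%) lay on the fibroblast side after TAC and 120 (8.97%) on the endothelial side, beside 16.2% and 8.47% of all detected genes.

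C1qtnf3, a secreted C1q and TNF-related protein, led the fibroblast genes at 9.72 and 9.92 against 5.53 on the endothelial TAC array, with 5.89 and 5.60 on the fibroblast sham arrays. Its endothelial value lies within the range of the dim bacterial controls. Ccn4, a matricellular Wnt target, stood at 11.23 and 11.17 against 7.54, and at 6.92 and 6.62 in sham fibroblasts and 6.17 in sham endothelial cells. The populations were close at sham, and after TAC both fibroblast arrays stood apart. Frem1, a matrix protein of basement membranes, stood at 10.95 and 10.68 against 7.17, with an endothelial rise of 0.52.

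Growth factor genes were among the leaders. Ereg, the EGF receptor ligand epiregulin, stood at 10.00 and 10.22 against 6.31, and Bdnf, a neurotrophin, at 10.4 and 10.3 against 7.0. Scube2, a releaser of hedgehog ligands, stood at 10.46 and 9.73 against 6.91. Wfdc18 showed the largest lineage gap of the leaders, 1.13, at 11.97 in traced and 10.85 in untraced fibroblasts against 7.59. The other leaders were Klrb1a, Gm41724, Kif26b, Zfp185, Spink2, Ecrg4, Garem2, Siglecf and the matrix genes below. Klrb1a, Gm41724 and Siglecf also had endothelial values within the range of the dim bacterial controls, so their folds rest on dim values.

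**Figure D5:**
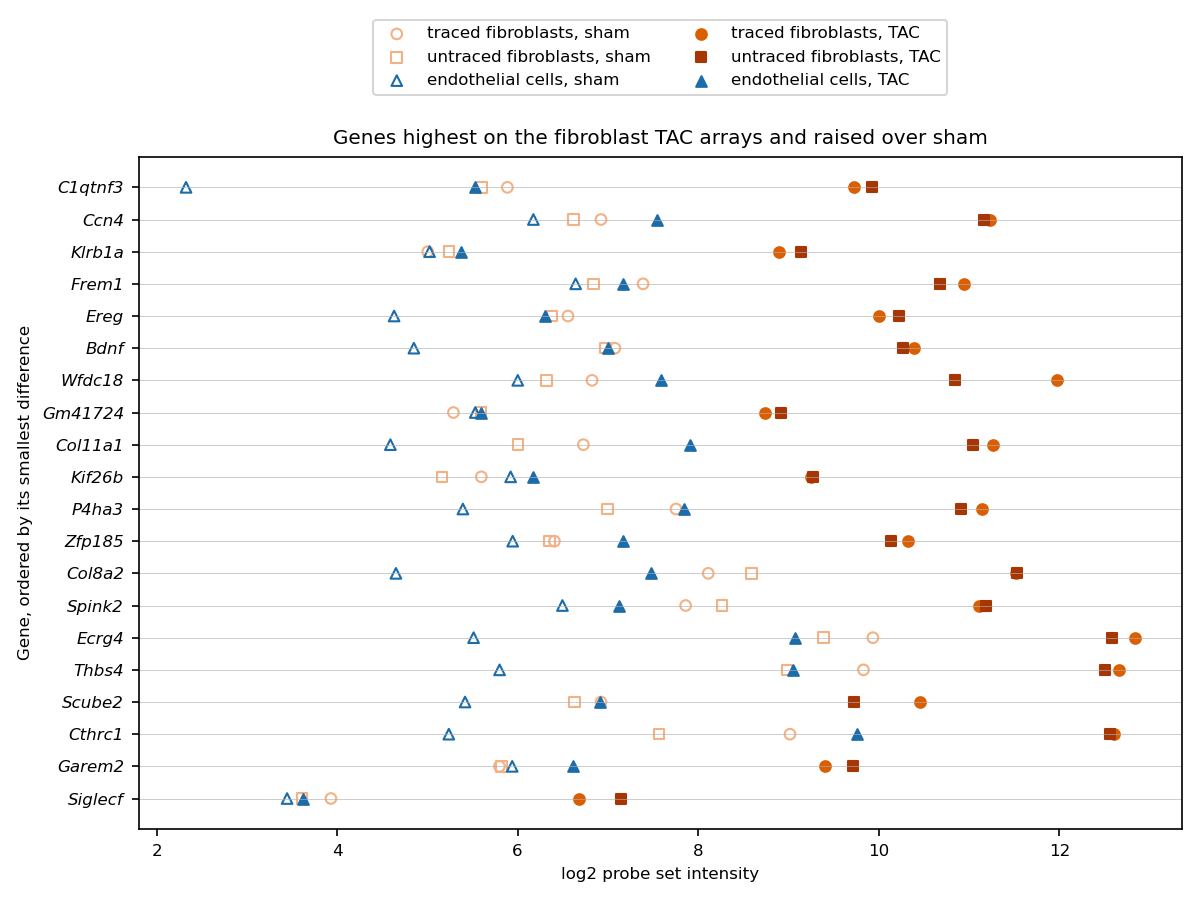
The 20 leading genes of the fibroblast rule, ordered by the smallest of their 4 differences, with the log2 intensity of all 6 arrays (filled symbols TAC, open symbols sham). Both fibroblast TAC arrays lie to the right of the other 4 for each gene, as for Ccn4 at 11.23 and 11.17 and Cthrc1 at 12.60 and 12.56.

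Collagens were carried by fibroblasts after TAC, with a narrower gap than at sham. Of 15 fibrillar and network collagen genes 12 were higher in fibroblasts and 3 were shared, with a median difference of 2.71 after TAC and 5.08 at sham. All 15 were at least 2-fold above sham on the endothelial array, by a median of 3.73, beside 11.3% of all genes. In both fibroblast populations 4 were (Col8a2, Col11a1, Col12a1 and Col14a1), beside 4.35% of all genes, with median rises of 0.39 and 0.44. On the endothelial sham array 5 of the 15 lay within the range of the dim bacterial controls, so the size of their rises rests on dim values. Col11a1, a fibril-nucleating collagen, stood at 11.27 and 11.04 against 7.91, and at 6.7, 6.0 and 4.6 at sham. Col8a2 stood at 11.53 on both fibroblast arrays against 7.48, and at 8.11, 8.59 and 4.65 at sham.

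Col1a1, Col1a2 and Col3a1, the main scar collagens, were the 3 shared genes. Col1a1 stood at 14.01 and 13.92 against 13.01 after TAC and at 13.74, 13.58 and 8.58 at sham, so the endothelial array was the one that differed between surgeries. Col1a1, Col1a2 and Col3a1 stood at 51.7%, 54.0% and 64.5% of the fibroblast level on the endothelial TAC array. All 3 lay above the 42.1% of Dcn, the highest of the 18 called fibroblast markers, and below the 66.5% of the uncalled Mgp. The rule that calls a marker limits how high its percent can be. The part of carried fibroblast RNA in these collagens was not tested. The other 12 collagens lay at or below 31.8%.

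Collagen-processing enzymes followed. Of 13 detected 8 were higher in fibroblasts, 4 were shared and 1 was undecided, with a median of 1.55. Lox, the lysyl oxidase that crosslinks collagen, stood at 12.67 and 12.86 against 9.71, and at 10.33, 9.90 and 5.97 at sham. P4ha3, a collagen prolyl hydroxylase, stood at 11.15 and 10.91 against 7.84, and Plod2, which hydroxylates collagen lysines, at 11.36 and 11.18 against 10.07, from a shared level at sham (9.69, 9.53 and 9.74). Plod1 was on the other side of equal, at 11.66 and 11.62 against 12.41, within 2-fold.

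Matricellular and scar matrix genes were higher in fibroblasts in 15 of 18 and shared in 3 (Ccn1, Ccn3 and Bgn), with a median of 2.63 after TAC and 3.67 at sham. Cthrc1, a secreted marker of activated fibroblasts, stood at 12.60 and 12.56 against 9.76, and at 9.02, 7.56 and 5.24 at sham. Postn, periostin, stood at 13.65 and 13.73 against 12.62, and at 12.74, 12.41 and 7.07 at sham; its endothelial value was 46.7-fold above sham and 47.5% of the fibroblast level. Comp, Tnc, Thbs1, Thbs4, Ccn4, Fn1, Cilp and Ltbp2 met the fibroblast rule with Cthrc1. Thbs4, a thrombospondin of stressed muscle, stood at 12.66 and 12.50 against 9.05, and Tnc, tenascin C, at 12.52 and 12.67 against 10.58.

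Of 16 basement membrane genes 12 were shared, near the 68.1% of all detected genes, with a median of 0.04 (0.61 at sham) that spike-in scaling moved to 1.11. Col4a1, the core of every basement membrane, stood at 13.90, 13.94 and 14.11. Lama2 (13.10, 13.21 and 9.78) and Col4a5 (11.23, 11.38 and 7.38) were higher in fibroblasts, and Lama5 (7.27, 7.46 and 10.15) was higher in endothelial cells. Nid2 and Col18a1, a nidogen and the precursor of endostatin, were shared by level and raised in endothelial cells, Nid2 from 10.67 to 11.80 and Col18a1 from 8.38 to 10.61.

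Proteases and their inhibitors were divided. Of 15 detected 8 were higher in fibroblasts, 3 in endothelial cells, 3 were shared and 1 was undecided. Timp1, an injury-induced inhibitor of metalloproteinases, stood at 13.65 and 13.59 against 10.57, and at 11.68, 11.46 and 4.65 at sham. Mmp2, a gelatinase, stood at 13.34 and 13.37 against 10.44, and Mmp14, which activates it, at 12.00 and 11.61 against 9.47. The endothelial genes were Adam15, Adamts9 and Timp4. Adam12 and Adamts4 were shared and raised in all 3 populations, with Adamts4, an aggrecanase, at 11.12, 11.25 and 11.09 against 9.44, 9.66 and 7.42 at sham.

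In the TGF-beta and activin list, which governs matrix production, 10 of 20 genes were higher in fibroblasts and 7 were shared. Ligands were divided: Tgfb2 (10.67, 10.68 and 8.03) and Tgfb3 (12.30, 12.34 and 9.44) were higher in fibroblasts, and Tgfb1 (10.57, 10.18 and 11.47) was undecided with both fibroblast arrays below the endothelial one. Among receptors, Tgfbr1 and Tgfbr3 were higher in fibroblasts, Tgfbr2 and Acvrl1 were shared, and Eng, an endothelial co-receptor, was higher in endothelial cells (11.85, 11.45 and 13.39). Nox4, a TGF-beta-induced oxidase, met the fibroblast rule at 10.23 and 9.99 against 6.89. Of 10 BMP genes 5 were higher in fibroblasts, among them Bmp6, which was lower in endothelial cells after TAC (10.01) than at sham (11.78) and level in fibroblasts (11.19 and 11.36). Id1, a BMP target, was the 1 endothelial gene, at 11.97 against 9.14 and 8.87.

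Of 14 detected contractile genes 7 were higher in fibroblasts and 7 were shared, and the median was 0.88 after TAC against -0.19 at sham. The TAC median was 0.35 on the mean of all probe sets, 0.56 without the suffixed probe sets, and 1.94 with spike-in scaling. Acta2, the smooth muscle actin of myofibroblasts, stood at 12.64 and 12.61 against 11.25 after TAC and at 11.19, 11.35 and 12.26 at sham, so the order of the cell types turned. Tagln, an actin-binding protein of contractile cells, stood at 12.39 and 12.28 against 10.63, from 10.14, 10.16 and 10.84. Palld, Actn1 and Meox1 also met the fibroblast rule, with Meox1, a transcription factor of activated fibroblasts, at 13.31 and 13.49 against 12.19. Mural cells share such genes: Myh11, which defines smooth muscle, stood at 6.55 and 7.57 against 9.76 after TAC and at 8.47, 9.28 and 10.96 at sham, lower after TAC on all 3 arrays. Of 10 detected mural markers 3 were higher in endothelial cells (Rgs5, Myh11 and Mcam), 4 were shared, 2 undecided and 1 (Pdgfrb) higher in fibroblasts. Summed levels of all 11 with a probe set were 13.83 on the endothelial and 13.27 and 13.11 on the fibroblast TAC arrays. The part of mural cells in the contractile values was not tested.

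Transition factors and mesenchymal adhesion genes were higher in fibroblasts in 9 of 13 and shared in 4, with a median of 2.30 (3.63 at sham). Cdh11 and Cdh2, mesenchymal cadherins, met the fibroblast rule, Cdh11 at 10.91 and 10.75 against 7.31 and Cdh2 at 10.55 and 10.44 against 7.42. Snai1 and Twist1, which drive mesenchymal transition, were raised on the endothelial array, Snai1 from 5.41 to 7.33 and Twist1 from 4.92 to 7.25, without reaching the fibroblast arrays (9.17 and 9.09, 10.61 and 10.75). Both endothelial sham values lie within the range of the dim bacterial controls, so the size of these rises rests on dim values. The part of carried fibroblast RNA in them was not tested. Snai2 was shared at 11.21, 11.05 and 11.09, and level with sham.

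Inflammatory genes were spread over both cell types. Of 24 detected cytokines and chemokines 12 were higher in fibroblasts, 3 in endothelial cells (Cxcl9, Ccl3 and Tnfsf10), 6 were shared and 3 were undecided, with a median of 1.13 after TAC and 0.32 at sham. Il6, a cytokine of acute injury, stood at 11.21 and 11.60 against 10.25, and at 8.12, 8.07 and 3.71 at sham. It was undecided, because the traced difference was under 2-fold, and raised in all 3 populations, 93.4-fold on the endothelial array. The endothelial sham value of Il6 lies within the range of the dim bacterial controls, so that fold is rough. Ccl2 and Ccl7, attractants of monocytes, were higher in fibroblasts, Ccl2 at 12.44 and 12.46 against 9.49 and Ccl7 at 11.20 and 11.19 against 7.03. Cxcl2, Cxcl5, Ccl9 and Il34 met the fibroblast rule. Tnfsf10, the death ligand TRAIL, stood at 9.85 in endothelial cells against 5.32 and 5.97, and lower than at sham (11.22). Il1b stood at 7.86 against 6.86 and 6.64, 6.04 on the endothelial sham array, just outside the endothelial rule.

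Growth factors showed complementary sides. Pdgfb (6.35, 6.35 and 11.81) and Pdgfd (7.95, 7.89 and 10.48), ligands of the PDGF receptors, were higher in endothelial cells, and Pdgfc (7.88, 7.44 and 5.06) in fibroblasts, where it was raised from 5.14 and 4.81. Igf1 (12.83, 12.70 and 10.75) was higher in fibroblasts and Igf2 (9.45, 8.82 and 11.11) in endothelial cells. In all, fibroblasts had the higher level of 8 of 18 and endothelial cells of 4. Of vasoactive genes, Nos3, the endothelial nitric oxide synthase (5.62, 6.20 and 11.41), Ednrb (6.22, 6.17 and 11.15) and Npr1 were higher in endothelial cells. Ptgs2, the inducible cyclooxygenase (10.55, 11.05 and 7.33), Ptgis, Ace and Agtr1a were higher in fibroblasts. Among 11 clotting genes the endothelial ones were Vwf, Thbd and Plaur, and the fibroblast ones F3 and Tfpi2.

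The stress lists were shared about as often as all detected genes (68.1%) or somewhat more often. Of 20 immediate early genes 14 were shared, 5 were higher in fibroblasts and 1, Fosl1, in endothelial cells. Egr2 and Egr3, transcription factors of early growth responses, met the fibroblast rule, Egr2 at 12.92 and 13.11 against 10.56. Of 18 protein folding genes 15 were shared, and of 16 hypoxia and glycolysis genes 11. Hk2, hexokinase 2, was higher in fibroblasts (10.02, 10.22 and 6.58), and Ankrd37 and Ndrg1, hypoxia-responsive genes, in endothelial cells. All 9 detected housekeeping genes were shared, with a median of -0.09 that spike-in scaling turned to 0.98. Of 10 cardiomyocyte markers 7 were higher on the endothelial TAC array and 0 on the fibroblast arrays, with a median of -1.60 (-2.83 at sham), so muscle RNA differed between the samples as well; its part in the results was not tested.

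Few genes changed sides between surgeries. The class was opposite at sham and after TAC for 5 genes: Tmem255a and Npnt moved from fibroblasts to endothelial cells, and Crispld1, Mndal and Trav9d-3 the other way. Tmem255a, a membrane protein, stood at 8.73, 9.03 and 7.65 at sham and at 6.33, 6.46 and 9.55 after TAC, lower in both fibroblast populations and higher in endothelial cells. Npnt, a basement membrane ligand of integrins, stood at 6.63, 6.70 and 5.26 at sham and at 6.19, 6.30 and 7.49 after TAC. Mndal, an interferon-inducible gene, stood at 8.32, 8.56 and 10.53 at sham and at 6.39, 6.85 and 2.99 after TAC, the last within the range of the dim bacterial controls.

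Tmem255a was also among the genes that moved in opposite directions: 17 genes were at least 2-fold lower in both fibroblast populations and at least 2-fold higher in endothelial cells, and 2, Acta2 and Chac1, the reverse. Of all detected genes 184 (1.56%) were at least 2-fold lower in both fibroblast populations, and 11.3% were at least 2-fold higher in endothelial cells. For the reverse, 4.35% were at least 2-fold higher in both fibroblast populations and 1.44% at least 2-fold lower in endothelial cells. Among the 17 were Pgf, a VEGF receptor 1 ligand, and Inhbb, an activin subunit. Pgf stood at 11.21, 11.58 and 7.79 at sham and at 9.54, 9.61 and 9.54 after TAC, where the 3 arrays were level. Inhbb stood at 11.10, 11.58 and 8.06 at sham and at 9.78, 10.29 and 10.40 after TAC. Cxcl14, Efemp1 and Scara5 were also among the 17 and remained higher in fibroblasts on both surgeries' arrays.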

How the data were processed

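Expression in 6 samples, grouped from their labels by cell population and surgery, was measured with Affymetrix arrays. RMA is named in the submitters' processing notes, and its version is not given in the sources used here. As values, the authors deposited a linear probe set intensity for 45101 probe sets per array, from 3.82 to 37205, and log2 was taken without further normalization. As usually run, RMA brings arrays to a common distribution, and a shift of all genes between cell types is then not seen.

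The platform annotation named 1 symbol for 34958 probe sets and several for 932, and left 9211 unnamed here; RefSeq (GRCm38.p6) updated the symbols, with 99.4% of gene IDs matched. Where a gene had several probe sets, the brightest by mean over all 6 arrays stood for it. Of 18194 genes, 11793 were detected, above the median of their own array on at least 1 of the 3 TAC arrays. All pairs of arrays were compared, and 0 were identical.

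No p-value was computed, because each group has 1 array. Classes and rules required a 2-fold difference in both fibroblast populations. The classification code was also run on simulated data, with Python 3.11.15, numpy 2.4.6 and pandas 2.3.3. Their noise was set from the traced minus untraced TAC difference, so that run gives no error rate for calls between cell types. The number of arrays limits the precision. Named genes were the members of the gene lists, the 20 leading genes of each rule, the 10 with the widest gap in each direction and the 10 shared genes raised most in all 3 populations; any other gene named was chosen after its values were seen. The comparison, members and lists were chosen with earlier results of these data known. The alternatives tried were other probe set choices, filters, scalings, a pseudocount of 32, each fibroblast population alone and a 4-fold threshold. Median-centred differences, and only genes above the median of the endothelial TAC array, were added after seeing the data.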

Additional observations from a re-analysis of the deposited data

Results flagged for a closer look

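With 1 array per group, none of the differences between surgeries or cell types given here was tested. The fibroblast minus endothelial difference had opposite signs at sham and after TAC, by at least 2-fold in both populations, for 5 genes. After TAC it was 1.11 for Crispld1, 3.63 for Mndal, -1.25 for Npnt, -3.16 for Tmem255a and 1.29 for Trav9d-3, and at sham -1.6, -2.1, 1.4, 1.2 and -1.4 in the same order. Mndal stood at 2.99 on the endothelial TAC array, so the size of its difference rests on a dim value.

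The change from sham to TAC ran one way in both fibroblast populations and the other way in endothelial cells for 7 of the named genes beside Tmem255a. The endothelial change was -1.0 for Acta2, -1.30 for Chac1, 1.17 for Cxcl14, 1.37 for Efemp1, 2.34 for Inhbb, 1.75 for Pgf and 2.28 for Scara5. The mean fibroblast changes were 1.35, 1.47, -1.78, -1.85, -1.30, -1.82 and -1.67 in the same order. Scara5 is also a fibroblast marker, and in endothelial cells all 18 called fibroblast markers stood at a higher percent of the fibroblast level after TAC than at sham; the part of carried fibroblast RNA in the rises of Cxcl14, Efemp1, Inhbb, Pgf and Scara5 was not tested. Inhbb (10.40 against 9.78 and 10.29) and Pgf (9.54 against 9.54 and 9.61) stood at or near the fibroblast level.

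Among the 3110 detected probe sets without exactly 1 gene symbol, which the comparisons leave out, 24 met the endothelial rule and 28 the fibroblast rule.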

How the results depend on the processing

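Equal spike-ins gave 6310 genes higher in fibroblasts, 439 in endothelial cells and 2868 shared, 51 genes under the endothelial and 382 under the fibroblast rule, 175 and 39 injury genes higher in fibroblasts and endothelial cells, and a marker median of 6.08%. A 4-fold threshold gave 794 and 465 genes, 9 and 47 under the rules, and 75 and 41 injury genes. An upper quartile filter, which tests fewer genes, gave 1198 genes higher in fibroblasts, 5240 shared, and 63 and 121 under the rules, and no filter gave 14017 shared. No gene of the lymphocyte, neutrophil and erythrocyte list passed the upper quartile filter, so that list has no value there. Traced fibroblasts alone gave 184 and 308 under the rules. The cause was not tested for scaling; the other counts follow from the number of genes or conditions. Only genes above the median of the endothelial TAC array, a choice made after seeing the data, gave 1222 genes higher in fibroblasts and 115 under the fibroblast rule, since dim endothelial values then drop out. The other counts of these kinds stayed within 1.5 times their main value, and no difference of the 281 named and classed genes reversed its sign under any alternative that measured it. Of the 20 leading endothelial genes, 16 met the rule with spike-in scaling (not Cd109, Sele, Rgs16 and Cda). On the mean of all probe sets 17 of the 20 had a value and Bdkrb2 did not meet the rule; 11 had a value under the upper quartile filter, and 9 met the rule at 4-fold. No paired analysis was possible because the labels give every group the replicate number 1 only, so the groups share fewer than 2 numbers, and no result comes from a test. For the same reason no replicate could be left out. On arrays, dim values near the bacterial controls limit the size of the largest folds.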
